A study of Mus musculus with 12 samples.

Results

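The matrix metalloproteinases described here are the 10 genes Mmp2, Mmp3, Mmp8, Mmp9, Mmp11, Mmp12, Mmp13, Mmp14, Mmp19 and Mmp23. They were matched by gene symbol among the 18050 genes of an RNA-seq table of mouse left ventricle, and all 10 were found. Wild-type mice underwent either a sham operation (6 libraries) or MI, read here as myocardial infarction, the ischaemic death of part of the heart wall (6 libraries). All tissue was taken 7 days after surgery. The libraries of each group are numbered 1 to 6, and by the submitters' processing notes replicates 1 and 2 form one set, replicates 3 to 6 another. Strain, age and sex are not given in the sources used here. Whether the libraries of a group stem from different animals is not given in the labels. The p-values here therefore describe the spread among these libraries alone, and that spread may be technical.

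Matrix metalloproteinases are zinc-dependent proteases that cut collagens, elastin, proteoglycans and other proteins outside the cell. Most are made as inactive precursors whose propeptide must be removed, some by other proteases after secretion and some by furin-like convertases before they reach the surface. The tissue inhibitors of metalloproteinases (TIMPs) bind and block the active enzymes. After infarction in the mouse, these enzymes are known for breaking down the matrix of the injured wall while infiltrating leukocytes and fibroblasts clear dead muscle and build a scar. The counts below measure transcripts, not enzyme or its activity.

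Levels are given in CPM, expected counts scaled to a common library total by the TMM method, and as FPKM where genes are compared with each other, since FPKM takes gene length into account. The libraries held 9140353 to 18602226 expected counts, and the MI libraries were deeper than the sham libraries of the same set. Replicates 3 to 6 of a group lay nearly as close together as repeat libraries. Between pairs of them, 7.95% to 13.4% of genes differed at an unadjusted chi-square p under 0.05, against 34.8% for sham replicates 1 and 2 and 51.2% for MI replicates 1 and 2. A gene is therefore said to have risen or fallen only where edgeR's quasi-likelihood test called it the same way over all 12 libraries and again with replicates 3 to 6 of each group summed and counted once, both at an adjusted p under 0.05. Every library contained transcripts of all 10 cardiomyocyte markers checked, whose summed level was 71683 to 81772 CPM in sham, 4996 to 8018 CPM in MI replicates 1 and 2, and 23118 to 23296 CPM in MI replicates 3 to 6. In whole ventricle, more cells of a type and more RNA per cell cannot be told apart.

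Of the 10 metalloproteinases, 7 rose after MI and 0 fell. Mmp2, Mmp8, Mmp11, Mmp12, Mmp14, Mmp19 and Mmp23 rose, and Mmp3, Mmp9 and Mmp13 were not called. The same 7 were called higher by each of the tests that the rule joins. The background for this count is that 28.1% of the 13592 genes tested both ways were called higher by both tests, 37.9% by the 12-library test and 28.2% with replicates 3 to 6 counted once. The median log2 fold change of the members over 12 libraries was 2.04, against 0.01 over all genes tested. All 10 passed the filter on low counts. No MI library overlapped a sham library in CPM for 6 members, Mmp2, Mmp8, Mmp12, Mmp14, Mmp19 and Mmp23, where 21.4% of tested genes had all 6 MI libraries above all 6 sham libraries.

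**Figure D1:**
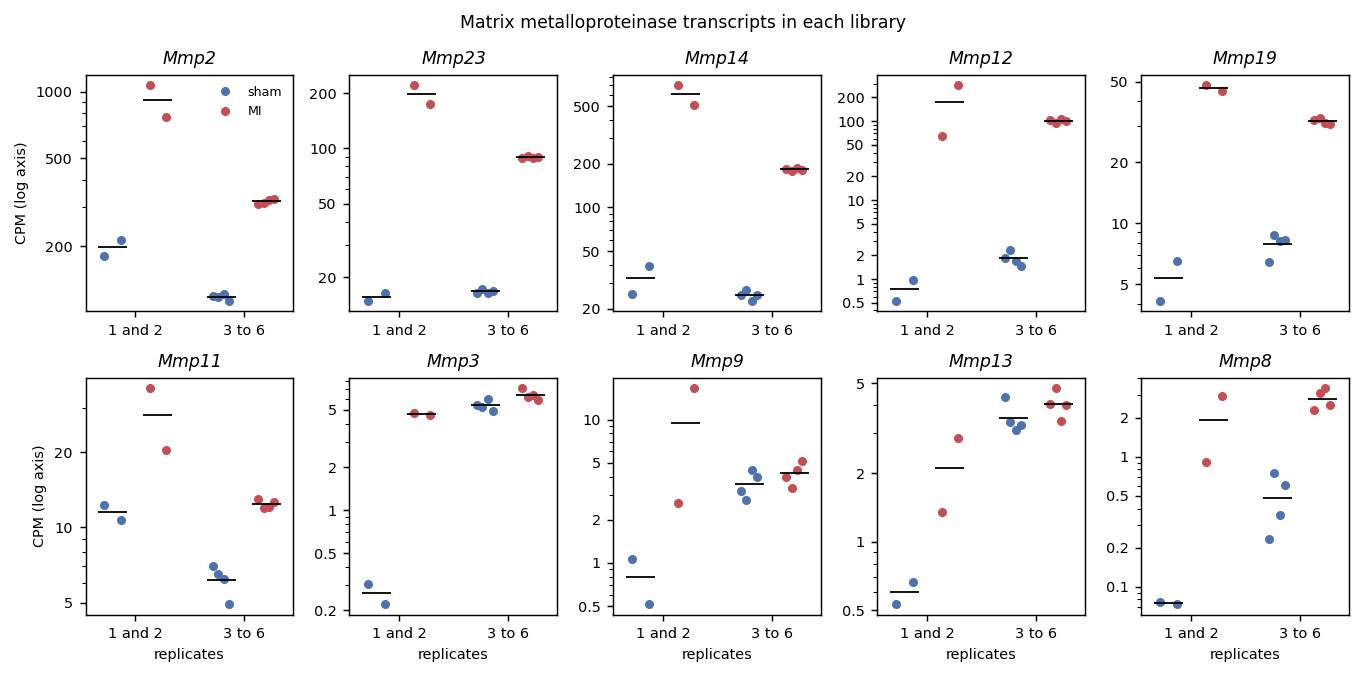
Level of each of the 10 metalloproteinases in each library, in CPM on a log axis; points are libraries (blue sham, red MI), black lines are the means of 2 or 4 libraries, and the horizontal axis parts replicates 1 and 2 from replicates 3 to 6. Mmp3, Mmp9 and Mmp13 have sham and MI points that overlap in replicates 3 to 6, while for Mmp12 the sham points lie between 0.533 and 2.36 CPM and the MI points between 64.1 and 285 CPM.

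Promoter sequence is shown for 4 members that behaved differently across the libraries: Mmp3 and Mmp13, whose groups overlapped in replicates 3 to 6, Mmp12, which had the largest log2 fold change of the 10, and Mmp14, which rose in both sets. The 150 bases shown end just before the annotated start site, in RefSeq's windows of build GRCm38.p6, and windows were found for 7 of the 10 members. Capitals mark the motif TGANTCA, bound by AP-1 (dimers of Fos and Jun proteins). They also mark TATAAA, the letters of the TATA box, an element that positions the start of transcription. Both strands were searched over 250 bases before each start site.
Mmp3 (chr9:7445672-7445821, plus strand): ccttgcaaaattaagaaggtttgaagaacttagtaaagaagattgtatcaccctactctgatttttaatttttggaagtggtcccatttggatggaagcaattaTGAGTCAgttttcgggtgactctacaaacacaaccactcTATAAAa
Mmp13 (chr9:7272364-7272513, plus strand): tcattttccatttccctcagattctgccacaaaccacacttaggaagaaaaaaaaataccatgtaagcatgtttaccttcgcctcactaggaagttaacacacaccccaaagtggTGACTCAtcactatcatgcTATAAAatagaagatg
Mmp12 (chr9:7347224-7347373, plus strand): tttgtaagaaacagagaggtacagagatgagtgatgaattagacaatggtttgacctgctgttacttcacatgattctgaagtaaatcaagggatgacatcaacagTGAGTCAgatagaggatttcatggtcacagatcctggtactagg
Mmp14 (chr14:54431448-54431597, plus strand): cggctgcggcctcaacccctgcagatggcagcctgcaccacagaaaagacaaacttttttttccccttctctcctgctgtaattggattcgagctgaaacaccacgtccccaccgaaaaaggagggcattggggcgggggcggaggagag
The AP-1 letters stood at -46 to -40 in Mmp3, at -35 to -29 in Mmp13 and at -44 to -38 in this Mmp12 window, counted from the start site. Mmp12 has a further start site upstream, whose window held no AP-1 letters. Of 32851 RefSeq windows of this length, 6.75% held the AP-1 letters and 12.4% the TATA letters. The latter stood at -7 to -2 in Mmp3 and at -16 to -11 in Mmp13, and were not tested as a working TATA box. The windows of Mmp8, Mmp11, Mmp14 and Mmp23 held neither. A further motif, AGGAAG, bound by Ets-family proteins of the PEA3 group, was in 29.5% of windows and in those of Mmp3, Mmp8, Mmp13, Mmp14 and the upstream Mmp12 window. A match describes these letters and was not tested as a binding site.

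The gelatinases Mmp2 and Mmp9 cut denatured collagen and basement-membrane collagen. Mmp2 (gene ID 17390, GRCm38 chromosome 8, 92827291 to 92853420, plus strand) is made mainly by fibroblasts and other stromal cells. Its level was 182 and 214 CPM in sham replicates 1 and 2, against 1069 and 766 CPM in MI replicates 1 and 2. The other set had 118 ± 3.44 CPM in sham and 319 ± 7.21 CPM after MI (SD, n = 4 each). Every MI library thus lay above every sham library, and sham was higher in replicates 1 and 2 than in replicates 3 to 6. The log2 fold change over 12 libraries was 1.69 ± 0.14 (SE, adjusted p = 3.98e-07), and the adjusted p was 0.00269 with replicates 3 to 6 counted once.

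Mmp9 (gene ID 17395, chromosome 2, 164940780 to 164955850, plus strand) is the gelatinase carried in neutrophil granules and also made by macrophages. Its sham libraries 1 and 2 held 1.07 and 0.519 CPM. The MI libraries of the same set held 2.60 and 16.5 CPM and lay far apart. In replicates 3 to 6, sham ran from 2.74 to 4.42 CPM and MI from 3.32 to 5.15 CPM, and the groups overlapped. Mmp9 was not called, its log2 fold change being 1.23 ± 0.60 (SE, adjusted p = 0.0813) over 12 libraries and an adjusted p of 0.107 with replicates 3 to 6 counted once. The 13 neutrophil markers checked were all in the table. Their summed level was 41.2 CPM in MI replicate 1 and 78.4 CPM in MI replicate 2, against 8.36 to 8.41 CPM in the sham libraries of that set. It was 28.6 to 30.3 CPM in sham replicates 3 to 6 and 52.2 to 55.3 CPM in MI replicates 3 to 6. Of the 13 markers, 11 had counts in MI replicate 1, where Ly6g and Cxcr1 were at 0, and all 13 had counts in MI replicates 2, 4 and 5. In MI replicates 3 and 6 only Cxcr1 was at 0, and in sham 7 to 10 markers had counts, with Cxcr1 at 0 throughout. The part of neutrophils in the Mmp9 values was not tested.

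Mmp14 (gene ID 17387, chromosome 14, 54431612 to 54445364, plus strand) encodes a membrane-anchored collagenase that also activates the Mmp2 precursor at the cell surface. It was at 25.1 and 39.6 CPM in sham replicates 1 and 2, and at 697 and 511 CPM in MI replicates 1 and 2. The means of replicates 3 to 6 were 24.9 ± 1.72 CPM for sham and 183 ± 3.38 CPM for MI (SD, n = 4 each). Sham replicate 1 lay within the 22.8 to 27.0 CPM of sham replicates 3 to 6, and sham replicate 2 lay above that range. Both MI libraries of replicates 1 and 2 lay above the 178 to 186 CPM of MI replicates 3 to 6. The log2 fold change over 12 libraries was 3.33 ± 0.23 (SE, adjusted p = 1.02e-07), with an adjusted p of 0.00147 when replicates 3 to 6 were counted once.

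Mmp23 (gene ID 26561, chromosome 4, 155650655 to 155653384, minus strand) encodes a membrane-anchored member with an atypical C-terminal part. Sham replicates 1 and 2 held 14.9 and 16.5 CPM, and sham replicates 3 to 6 held 16.8 ± 0.376 CPM (SD, n = 4). MI replicates 1 and 2 held 220 and 173 CPM. MI replicates 3 to 6 held 89.6 ± 0.682 CPM (SD, n = 4), above every sham library and below both MI libraries of the other set. Its log2 fold change of 2.84 ± 0.19 (SE, adjusted p = 7.29e-08) came with an adjusted p of 0.00126 when replicates 3 to 6 were counted once.

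Mmp12 (gene ID 17381, chromosome 9, 7344381 to 7369499, plus strand), the macrophage elastase, showed a log2 fold change of 6.48 ± 0.46 over 12 libraries (SE, adjusted p = 1.10e-07), and the adjusted p was 0.00193 with replicates 3 to 6 counted once. Sham replicates 1 and 2 held 0.533 and 0.964 CPM, which rest on 20 counts together. MI replicates 1 and 2 held 64.1 and 285 CPM, the widest relative gap between MI libraries of a set among the members that rose. Replicates 3 to 6 held 1.84 ± 0.390 CPM in sham, which rest on 61 counts, and 102 ± 4.69 CPM after MI (SD, n = 4 each). Pooled counts gave an MI to sham ratio of 236 in replicates 1 and 2 (exact 95% interval 152 to 386) and of 55.4 in replicates 3 to 6 (43.1 to 72.6). These intervals cover counting error only. The summed level of 14 macrophage markers was 755 to 800 CPM in sham replicates 1 and 2 and 4682 and 7702 CPM in the MI libraries of that set. It was 1336 to 1397 CPM in sham replicates 3 to 6 and 4185 to 4331 CPM in their MI counterparts. Within replicates 1 and 2, the MI library with more Mmp12 had the higher macrophage sum. MI replicate 1, whose macrophage sum lay above those of MI replicates 3 to 6, had less Mmp12 than they did. The largest part of the macrophage sum was Lyz2, at 2906 and 2510 CPM in MI of the sets. The lower Lyz2 value of MI replicates 1 and 2 was 2408 CPM, below the 2463 to 2566 CPM of MI replicates 3 to 6. Ccr2 (36.6 against 67.5 CPM), Mrc1 and Cd163 had lower MI means in replicates 1 and 2 than in replicates 3 to 6. The other markers of the list had higher ones there. All 14 markers had counts in every library, 12 rose, Cd163 fell and Mrc1 was not called, and the part of macrophage number in the Mmp12 values was not tested.

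Mmp19 (gene ID 58223, chromosome 10, 128790910 to 128800824, plus strand), a secreted protease with basement-membrane substrates, rose by 2.39 ± 0.19 on the log2 scale (SE, adjusted p = 2.25e-07; counted once, adjusted p = 0.00161). Its level was 4.15 and 6.54 CPM in sham replicates 1 and 2, and 47.9 and 45.0 CPM in MI replicates 1 and 2. For replicates 3 to 6 the means were 7.91 ± 1.02 and 31.8 ± 0.966 CPM (SD, n = 4 each), and no sham library reached an MI library. Of its exon bases, 28.3% lie under exons of Tmem198b and Gm47093 on the opposite strand, and the sources used here do not state whether counting used strand, so its level is uncertain.

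Mmp11 (gene ID 17385, chromosome 10, 75923222 to 75936496, minus strand), stromelysin 3, is activated by furin inside the cell and is known from stromal fibroblasts of remodelling tissue. It had the smallest log2 fold change of the 7 that rose, 1.12 ± 0.14 (SE, adjusted p = 1.46e-05; counted once, adjusted p = 0.00936). In replicates 1 and 2 the sham libraries held 12.3 and 10.7 CPM and the MI libraries 36.0 and 20.5 CPM. The other set had 6.17 ± 0.881 CPM in sham and 12.4 ± 0.478 CPM after MI (SD, n = 4 each). The groups did not overlap within either set. Over all 12 libraries sham replicate 1 lay above the lowest MI library, MI replicate 4.

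The collagenases Mmp8 and Mmp13 can cleave intact fibrillar collagen. Mmp8 (gene ID 17394, chromosome 9, 7558456 to 7568485, plus strand), the neutrophil collagenase, had a single count in each of sham replicates 1 and 2, which is 0.0761 and 0.0741 CPM. MI replicates 1 and 2 held 0.914 and 2.91 CPM. The sham libraries of replicates 3 to 6 ran from 0.234 to 0.746 CPM and their MI libraries from 2.30 to 3.35 CPM, so every MI library lay above every sham library. The pooled ratio was 25.7 in replicates 1 and 2 (exact 95% counting interval 6.90 to 216) and 5.82 in replicates 3 to 6 (3.49 to 10.4). Mmp8 rose by 2.97 ± 0.42 on the log2 scale (SE, adjusted p = 3.84e-05; counted once, adjusted p = 0.00981), from the lowest levels of the 10 members. Of 6 neutrophil markers that could be tested, 3 rose and 3, among them S100a8 and S100a9, were not called.

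Mmp13 (gene ID 17386, chromosome 9, 7272514 to 7283331, plus strand), the main collagenase of bone and cartilage, had 0.533 and 0.667 CPM in sham replicates 1 and 2 and 1.35 and 2.87 CPM in the MI libraries of that set. Sham replicates 3 to 6 lay higher than either of those MI libraries, at 3.11 to 4.33 CPM, and MI ran from 3.41 to 4.74 CPM, so that the groups overlapped. It was not called, at 0.62 ± 0.28 on the log2 scale (SE, adjusted p = 0.0612; counted once, adjusted p = 0.109). On the authors' FPKM scale the same 8 libraries did not overlap, at 1.03 to 1.44 in sham and 1.48 to 2.07 in MI. All 5 testable bone and cartilage markers rose, and the summed level of all 10 on that list was 13.8 to 16.9 CPM in sham, 1276 and 1644 CPM in MI replicates 1 and 2, and 609 to 620 CPM in MI replicates 3 to 6. In MI that sum was carried mainly by Spp1, at 756 and 456 CPM in MI of the sets, and Comp, at 622 and 130 CPM. Sp7, Ibsp, Bglap, Bglap2 and Dmp1 could not be tested, at 0.450 CPM or less on average in each group of either set. The part of the listed markers' cells in the Mmp13 values was not tested.

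Mmp3 (gene ID 17392, chromosome 9, 7445822 to 7455975, plus strand), stromelysin 1, cuts proteoglycans and basement membrane and can activate other precursors of the family. It had 0.304 and 0.222 CPM in sham replicates 1 and 2, and 4.80 and 4.62 CPM in MI replicates 1 and 2. Sham replicates 3 to 6 were already at 5.38 ± 0.434 CPM, beside 6.37 ± 0.502 CPM in MI (SD, n = 4 each), and the groups overlapped. The log2 fold change over 12 libraries was 1.05 ± 0.45 (SE), and the gene missed the threshold in both tests, with adjusted p = 0.0503 over 12 libraries and 0.0581 counted once. In FPKM, replicates 3 to 6 did not overlap, at 2.47 to 2.96 in sham and 3.84 to 4.61 in MI.

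An exact two-sided permutation test exchanged group labels over all 12 libraries, across sets and with replicates 3 to 6 as separate libraries. It gave an exact p = 0.00216, the smallest it can give, for Mmp2, Mmp8, Mmp12, Mmp14, Mmp19 and Mmp23. The exact p was 0.00649 for Mmp11, 0.0844 for Mmp9, 0.104 for Mmp3 and 0.255 for Mmp13. Within replicates 3 to 6 alone the exact permutation p was 0.0286, the smallest possible there, for the 7 members that rose, and 0.0571 for Mmp3 and 0.229 for Mmp9 and Mmp13. The choice of scale bears on those 3 low members. With libraries scaled by their totals alone, the median log2 fold change over all genes went from 0.01 to 0.42, and higher genes made up 70.8% of those called rather than 49.97%. On that scale both tests called 9 members higher, Mmp3 and Mmp13 included, beside 6269 of 13592 genes. DESeq2 in both tests also called 9, adding Mmp3 and Mmp9, beside 4253 of 17576 genes. No scaling turned the direction of any member.

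Within replicates 1 and 2 alone, edgeR called all 10 members higher, where 34.1% of 14076 genes were. The 2 MI libraries lay above the 2 sham libraries for all 10, as for 44.8% of genes. With 2 against 2 libraries an exact permutation test cannot go below p = 0.333. Within replicates 3 to 6, 8 members were called higher, where 42.2% of 13821 genes were, and the exceptions were Mmp9 and Mmp13. The groups of replicates 3 to 6 did not overlap for 7 members, as for 36.9% of genes. These were the same 7 that rose. Mmp3, at a log2 fold change of 0.29 (adjusted p = 0.0335 by edgeR), was called there although its groups overlapped. The p-values of this set rest on libraries that lay nearly as close as repeat libraries.

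**Figure D2:**
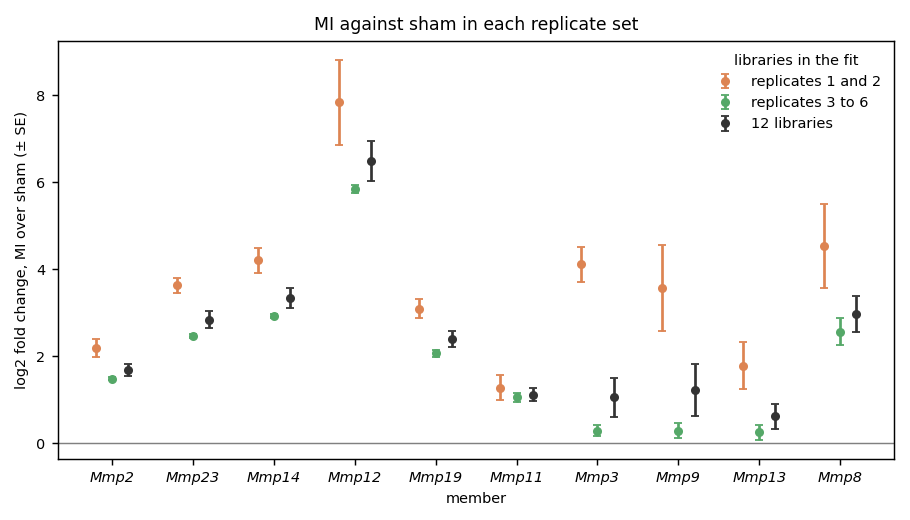
Log2 fold change of MI over sham for each metalloproteinase (points, with bars of 1 standard error), fitted in replicates 1 and 2 (orange), in replicates 3 to 6 (green) and over 12 libraries (black). All 10 orange points lie above their green counterparts, and the distance is widest for Mmp3, from 4.11 to 0.29, and Mmp9, from 3.57 to 0.29.

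All 10 members had a higher log2 fold change in replicates 1 and 2 than in replicates 3 to 6, with a median of 3.60 against 1.77. Over all genes tested the medians were 0.05 and 0.03. The pattern was not particular to the members. Inhibitors had medians of 2.03 against 1.21, and macrophage markers 2.53 against 1.53. The median was higher in replicates 1 and 2 for every other list but the cardiomyocyte, endothelial, and smooth muscle and pericyte markers. A difference between sets was called only where the interaction of set and group passed both over 12 libraries and with replicates 3 to 6 counted once. This held for Mmp3, whose log2 fold change was lower by 3.88 in replicates 3 to 6 (edgeR adjusted p = 1.82e-07, counted once 0.0185), and for Mmp23, lower by 1.23 (adjusted p = 2.66e-06, counted once 0.0424). The background is that 3.86% of genes had a smaller value in replicates 3 to 6 by both tests. In the 12-library test alone 7 members passed, adding Mmp2, Mmp9, Mmp13, Mmp14 and Mmp19, beside 26.8% of genes. With replicates 3 to 6 counted once the 2 passed, beside 3.84% of genes. Leaving out sham replicate 1 or sham replicate 2 left 0 members called by both tests. In those fits 0 of all 13797 and 0 of all 13804 genes had a smaller value called, so the 0 is not particular to the members. Leaving out MI replicate 1 left 4, Mmp3, Mmp9, Mmp12 and Mmp23, beside 1182 of 13756 genes. Leaving out MI replicate 2 left 4, Mmp2, Mmp3, Mmp14 and Mmp23, beside 1018 of 13730 genes.

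The way the sets differed was not alike for Mmp3 and Mmp23. For Mmp3, the MI levels of the sets lay within 4.62 to 7.06 CPM and the sham levels parted, 0.222 to 0.304 CPM against 4.95 to 5.98 CPM. For Mmp23 the sham levels lay within 14.9 to 17.3 CPM and the MI levels parted, 173 to 220 CPM against 89.0 to 90.5 CPM. The sets also differed in cardiomyocyte marker level in MI, given above, and in lung markers, whose summed level was 15.7 to 28.4 CPM in MI replicates 1 and 2 and 187 to 190 CPM in MI replicates 3 to 6, against 1.02 to 2.52 CPM in sham. Of 11 lung markers 10 were in the table, and Sftpa1, Sftpc, Sftpd and Cldn18 were at 0 in MI replicates 1 and 2. The part of any of these in the metalloproteinase values was not tested, and the set cannot be told apart from whatever else differed between the sets.

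Per length, Mmp2 was the most abundant of the 10 in every group of either set. Sham replicates 3 to 6 had 34.2 ± 0.920 FPKM of it, followed by Mmp23 with 11.1 ± 0.264 and Mmp14 with 5.79 ± 0.429 (SD, n = 4 each). Mmp3, Mmp11 and Mmp19 came next, at 2.69, 2.53 and 2.10 FPKM, with neighbouring ranges that overlapped. Mmp13, Mmp9 and Mmp12, at 1.17, 0.998 and 0.900 FPKM, overlapped likewise, and Mmp8 was last at 0.178 FPKM. In MI replicates 3 to 6 Mmp12 stood at rank 3, with 63.7 ± 3.03 FPKM, between Mmp23 with 75.9 ± 0.899 and Mmp14 with 55.9 ± 1.01 (SD, n = 4 each), and Mmp2 had 121 ± 2.70. The ranges of Mmp13, Mmp9 and Mmp8, at 1.77, 1.55 and 1.33 FPKM, overlapped at the low end.

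In MI replicates 1 and 2 the order was Mmp2 with 343 ± 71.5 FPKM, Mmp14 with 182 ± 35.2, Mmp23 with 163 ± 23.9 and Mmp12 with 112 ± 102 (SD, n = 2 each). The last 3 had overlapping ranges. Summed over the 10 members, FPKM was 78.1 ± 8.68 for sham and 838 ± 29.3 for MI within replicates 1 and 2 (SD, n = 2 each). For the other set the sums were 61.6 ± 1.61 and 343 ± 3.81 (SD, n = 4 each). These FPKM values are the authors' and carry no TMM scaling. MI to sham ratios were larger on this scale, for Mmp2 6.26 against 4.63 in CPM in replicates 1 and 2. The share of Mmp2 in that sum went from 70.03% in sham to 40.8% in MI in replicates 1 and 2, and from 55.5% to 35.2% in replicates 3 to 6. The share of Mmp12 went from 0.436% to 13.6% and from 1.46% to 18.6%. The MI libraries of replicates 1 and 2 differed here, with Mmp12 at 4.67% of the sum in one and 22.5% in the other. Mmp3 made up 4.35% of the sum in sham replicates 3 to 6 and 1.21% in MI.

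**Figure D3:**
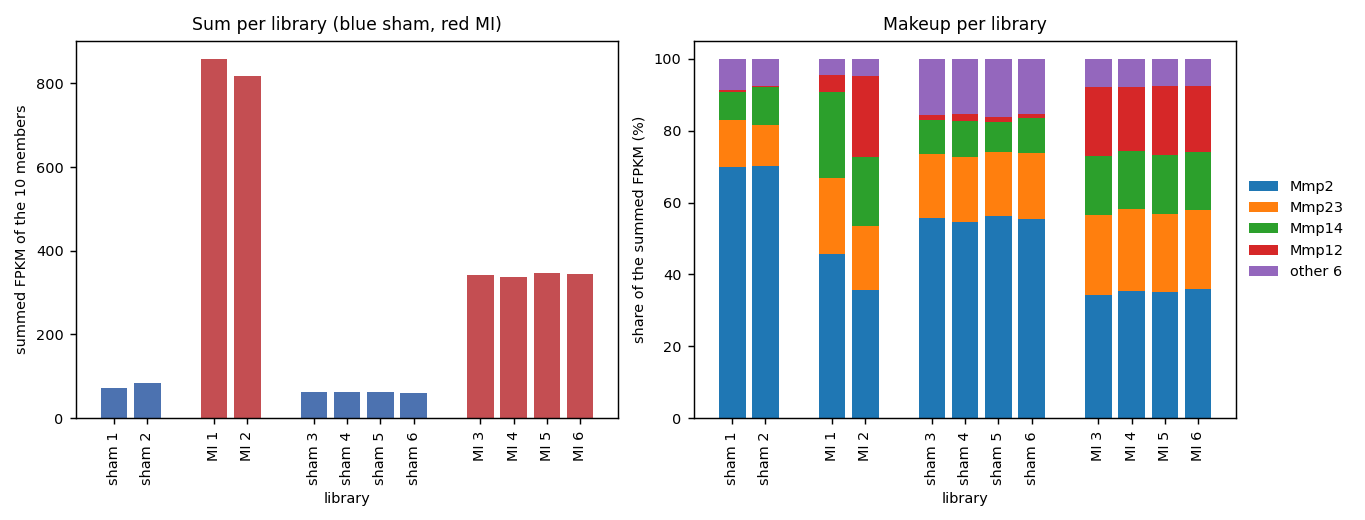
Left, summed FPKM of the 10 metalloproteinases in each library, with bars from 0 (blue sham, red MI); right, the share of that sum held in each library by Mmp2, Mmp23, Mmp14, Mmp12 and the other 6 together, in percent. The red bars are 817 and 859 FPKM in MI replicates 1 and 2 and 338 to 347 FPKM in MI replicates 3 to 6. The Mmp2 band is narrower in MI than in sham in both sets. FPKM here carries no TMM scaling.

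The members did not all follow one profile across libraries. As a description over 12 libraries, which fall into 4 groups by set and operation, Mmp3 and Mmp13 tracked each other (Pearson r of log2 CPM 0.91), while Mmp13 and Mmp11 did not (-0.30). Mmp14 and Mmp23 tracked each other at 0.99, and Mmp12 and Mmp19 at 0.98. Among 9907 genes of at least 10 mean CPM, those most like Mmp2 were Agrn (0.997), which encodes a heparan sulfate proteoglycan of basement membranes, Loxl1 (0.995), an elastin cross-linking enzyme, and Rcn3 (0.995), a calcium-binding protein of the secretory pathway. Those most like Mmp23 were Fbln5 (0.998), an elastic-fibre protein, Vkorc1 (0.997), an enzyme of the vitamin K cycle, and Pdia6 (0.996), a protein disulfide isomerase. All 6 of these genes rose, which their likeness to members that rose fixes in advance.

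Of 13 other genes of the family on the list, 9 were in the table and 6 could be tested both ways. Mmp16, Mmp17 and Mmp27 rose, Mmp15 fell, and Mmp24 and Mmp28 were not called. Mmp16, which encodes a membrane-type protease related to Mmp14, averaged 0.901 ± 0.0170 CPM in sham replicates 1 and 2 and 16.7 ± 2.34 CPM in their MI counterparts (SD, n = 2 each). The means of replicates 3 to 6 were 1.41 ± 0.458 and 10.1 ± 1.15 CPM (SD, n = 4 each). The log2 fold change of Mmp16 was 3.33 ± 0.24 (SE, edgeR adjusted p = 1.46e-07), and the gene length implied by its counts and FPKM was 3.27 kb in replicates 1 and 2 and 6.86 kb in replicates 3 to 6. Mmp27 had a log2 fold change of 3.21 ± 0.38 (SE) from 0.0741 and 0.509 CPM in sham of the sets to 1.86 and 3.82 CPM in MI. Mmp17, a glycolipid-anchored member, had 1.25 ± 0.17 (SE).

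Mmp15, a further membrane-type protease, was the family gene that fell, with a background of 29.8% of genes called lower by both tests. Its sham level was 336 ± 17.4 CPM in replicates 1 and 2 (SD, n = 2) and 45.5 ± 2.10 CPM in replicates 3 to 6 (SD, n = 4). Its MI level was 31.7 ± 0.229 CPM and 29.9 ± 1.69 CPM. The log2 fold change was -3.43 in replicates 1 and 2 and -0.55 in replicates 3 to 6. That difference passed both tests (edgeR adjusted p = 1.07e-10, counted once 0.0109), as it did in this direction for 6.7% of genes. Mmp28 had a log2 fold change of 0.62 (adjusted p = 0.0274, counted once 0.0676). Mmp24 had 29.2 ± 1.01 CPM in sham replicates 3 to 6 and 0.255 ± 0.236 CPM in sham replicates 1 and 2, and its log2 fold change was -0.40 (adjusted p = 0.0450, counted once 0.953). The authors' separate FPKM table gives sham replicates 1 and 2 levels of 7.21 and 7.03 FPKM for it, against 0.02 and 0.08 FPKM in the 12-library table. Mmp10 had 0 counts in the sham libraries and 19 counts over the 6 MI libraries, too few for a test.

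Of 8 inhibitors on the list, 7 could be tested, 6 rose and 1 fell. Timp1, the broad inhibitor induced by cytokines, changed by 5.12 ± 0.22 on the log2 scale (SE, adjusted p = 1.98e-09). Its mean was 5.61 ± 2.66 CPM in sham replicates 1 and 2 and 303 ± 68.7 CPM in the MI libraries beside them (SD, n = 2 each). Replicates 3 to 6 gave 5.76 ± 0.847 and 158 ± 3.42 CPM (SD, n = 4 each). Timp2, which both blocks Mmp2 and helps Mmp14 to activate it, rose by 1.46 ± 0.14 on the log2 scale (SE), from 279 and 205 CPM in sham of the sets to 1155 and 458 CPM after MI. Timp3, the inhibitor bound to matrix, rose by 0.86 ± 0.23 (SE), where the change was 1.89 in replicates 1 and 2 and 0.40 in the other set. Reck, a membrane-anchored inhibitor, rose by 0.85 ± 0.23 and Tfpi2 by 1.91 ± 0.16 (SE). Timp4, the inhibitor known for its abundance in heart, fell by 4.29 ± 0.33 (SE, adjusted p = 2.14e-07). Sham replicates 1 and 2 held 29.6 ± 6.61 CPM of it, and MI replicates 1 and 2 held 0.349 ± 0.357 CPM (SD, n = 2 each). The other set had 92.5 ± 2.41 and 6.48 ± 1.34 CPM (SD, n = 4 each).

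Of 15 testable genes for activation and docking, 11 rose, 3 fell and Furin was not called. Genes of the plasminogen activator system, which makes the plasmin that can activate metalloproteinase precursors, were among those that rose. Plau, urokinase itself, had a log2 fold change of 1.62 ± 0.16, its receptor Plaur 2.41 ± 0.20, and tissue plasminogen activator Plat 1.06 ± 0.08 (SE). Plg, which encodes the plasminogen they act on and is made chiefly in liver, was at 0.0381 CPM or less on average in each group of either set. Docking partners also rose, with the hyaluronan receptor Cd44 at 2.92 ± 0.20 and the integrin subunits Itgav at 1.90 ± 0.10 and Itgb3 at 2.38 ± 0.13 (SE). Furin, the convertase that removes the propeptide of Mmp11 and Mmp14, averaged 194 ± 24.9 CPM for sham and 177 ± 9.27 CPM for MI within replicates 1 and 2 (SD, n = 2 each). The means of replicates 3 to 6 were 53.3 ± 4.86 and 54.2 ± 0.662 CPM (SD, n = 4 each). Its log2 fold change was -0.03 ± 0.07 (SE, adjusted p = 0.704). Of the related convertases, Pcsk5 rose by 1.99 ± 0.16 and Pcsk7 by 0.54 ± 0.05 on the log2 scale (SE), and Pcsk6 fell (-0.97). The other genes that fell were Bsg, which encodes the metalloproteinase inducer basigin (-1.41), and Cav1, which encodes a caveolar protein (-0.39). Within replicates 3 to 6 Cav1 stood at 590 CPM in sham and 579 CPM after MI, so its fall rested on replicates 1 and 2.

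Among 23 testable transcription factors, cytokines and receptors known to induce metalloproteinases, 18 rose, 1 fell and 4 were not called, and the median log2 fold change was 1.22. The AP-1 subunits moved unequally. Fos had a log2 fold change of 2.45 ± 0.24, Junb 1.22 ± 0.13, Fosl2 1.07 ± 0.14 and Jun 0.33 ± 0.05 (SE), and Jund was not called (0.12, adjusted p = 0.178). Runx1, a factor of blood and mesenchymal cells, rose by 3.43 ± 0.19 (SE), from 2.93 and 5.11 CPM in sham of the sets to 55.2 and 41.7 CPM in MI. Runx2, the bone factor that drives Mmp13, rose by 2.60 ± 0.21 (SE) while Mmp13 itself was not called. The cytokine Il6 rose by 4.95 ± 0.38 and Il1b by 2.39 ± 0.55 (SE). Il1b was at 0.523 CPM in sham replicates 1 and 2 and at 11.9 CPM after MI, and the other set had 2.13 and 6.10 CPM. Tnf rose by 1.49 ± 0.23 and Tgfb1 by 0.94 ± 0.09 (SE). Ets2 fell (-0.55), with 125 CPM for sham and 115 CPM for MI within replicates 3 to 6, and Ets1, Etv5 and Rela were not called, at log2 fold changes of 0.00, 0.20 and 0.22.

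Of 22 genes for substrates, 16 rose, 1 fell and 5 were not called, and the median log2 fold change was 3.06. The fibrillar collagens cut by Mmp8, Mmp13 and Mmp14 had larger log2 fold changes over 12 libraries than every member but Mmp12, with Col1a1 at 5.37 ± 0.16, Col1a2 at 4.76 ± 0.14 and Col3a1 at 4.68 ± 0.19 (SE). Col5a2, a minor fibril collagen, rose by 4.61 ± 0.09 (SE, adjusted p = 7.52e-12), from 71.0 and 55.5 CPM in sham of the sets to 1943 and 1281 CPM in MI. Eln, which encodes the elastin that Mmp12 cuts, rose by 5.27 ± 0.25 (SE), from 104 to 6802 CPM in replicates 1 and 2 and from 33.2 to 984 CPM in replicates 3 to 6. Fn1 rose by 5.41 ± 0.15, the proteoglycan gene Vcan by 2.71 ± 0.06 and the osteopontin gene Spp1 by 7.62 ± 0.36 (SE). The basement-membrane collagen genes Col4a1 and Col4a2, whose products Mmp2 and Mmp9 cut, had log2 fold changes of 1.59 and 1.47 and were not called, since the adjusted p was 0.0509 and 0.0543 with replicates 3 to 6 counted once. Dcn and Lama2 were not called either, at 0.47 and 0.17, and Cxcl12, a chemokine gene, had 0.14. Spock2, a matrix proteoglycan gene, fell (-1.50).

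Cell type markers did not all move one way. All 11 fibroblast markers rose. Their summed level was 1084 and 1222 CPM in sham replicates 1 and 2 and 6301 and 6892 CPM in the MI libraries of that set. The sums of replicates 3 to 6 were 1179 to 1208 CPM in sham and 6781 to 6925 CPM after MI. That sum was carried mainly by Postn, at 3089 and 3663 CPM in MI of the sets, and Lum, at 1035 and 1092 CPM. The markers of the list did not all differ between the sets as Mmp2 did, a comparison made after their values were seen. Mmp2 had a higher MI mean in replicates 1 and 2 than in replicates 3 to 6. So did Pdgfra (158 against 98.8 CPM), Tcf21 (92.9 against 49.9), Pi16 (321 against 131), Col15a1 (565 against 354) and Cthrc1 (512 against 373). Lower there were Dpt (399 against 575 CPM), Mfap5 (344 ± 56.8 against 406 ± 6.01) and Meox1 (48.5 against 68.3). Fap (31.5 ± 11.9 against 31.9 ± 1.98), Postn (3089 ± 786 against 3663 ± 57.1) and Lum (1035 ± 77.3 against 1092 ± 14.4) had lower means there. Those 3 differed by less than the SD of MI replicates 1 and 2 (SD, n = 2 against n = 4). Of 10 cardiomyocyte markers 9 fell and Ttn was not called. Of 8 endothelial markers 3 fell and 5 were not called. Of 8 smooth muscle and pericyte markers 4 rose, 3 fell and 1 was not called. Of 7 epicardial markers 3 rose and 4 were not called. Among 5 mast cell markers tested 1, Kit, rose, and among 8 T and B cell markers 3 rose. Both lung markers that could be tested rose, and none of 5 blood markers was called. The part of cell number in the metalloproteinase values was not tested.

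**Figure D4:**
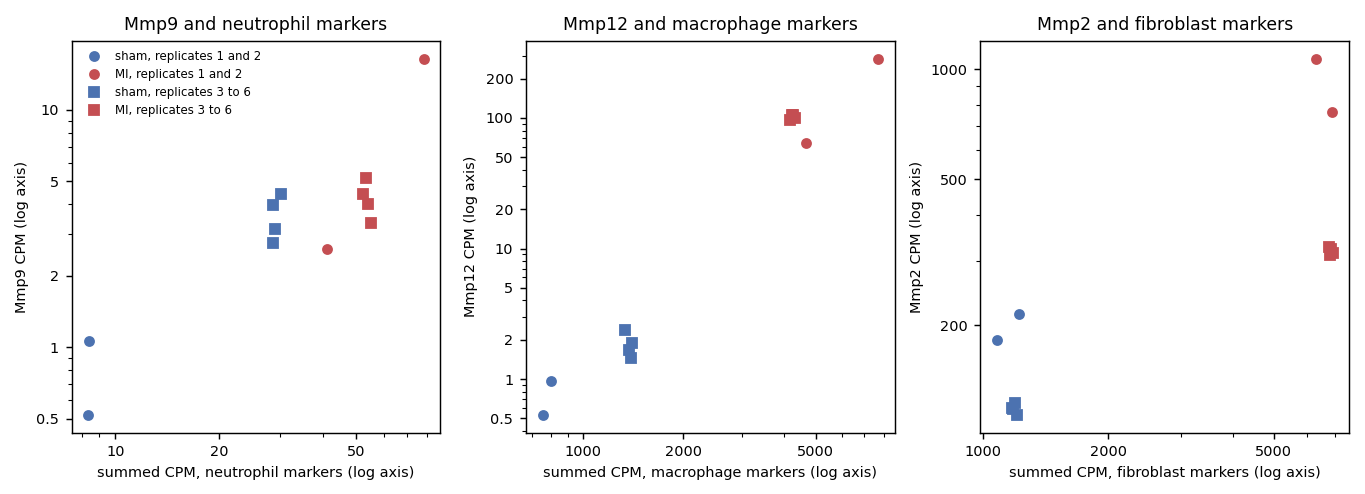
Level of Mmp9, Mmp12 and Mmp2 in CPM (vertical log axes) against the summed CPM of neutrophil, macrophage and fibroblast markers (horizontal log axes), 1 point a library (blue sham, red MI, circles replicates 1 and 2, squares replicates 3 to 6). In MI replicate 2, Mmp9 (16.5 CPM), Mmp12 (285 CPM) and the neutrophil and macrophage sums were all at their highest, and in MI the fibroblast sum, carried mainly by Postn and Lum, was 6301 to 6925 CPM.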

How the data were processed

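The authors deposited 1 table of 12 libraries with expected counts (unscaled), TPM and FPKM for 18050 genes by Entrez ID, of which 425 are blank in replicates 1 and 2, and a separate table with FPKM for replicates 1 and 2. Per the labels, RNA was extracted with Magzol and mRNA enriched with oligo(dT). Per the submitters' processing notes, replicates 3 to 6 were processed with Bowtie2, RSEM and DESeq2 on GRCm38. No tool is given for replicates 1 and 2 in the sources used here, and no version or strandedness for any library. TPM was not tested.

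After rounding, the expected counts went into edgeR 4.0.16 in R 4.3.3 (quasi-likelihood F test, TMM, filterByExpr, Benjamini-Hochberg over all tested genes, threshold 0.05) with the set as covariate, over 12 libraries and again with replicates 3 to 6 summed per group. The same test was run within each set and on the interaction of set and group. A standard error is the log2 fold change over the square root of F. Exact permutation tests used log2 CPM with a prior count of 1. Counting intervals are exact at 95%. The fits were tested on simulated data.

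The members, 5 partner lists, 12 marker lists and all comparisons were chosen with earlier results of these data known. The genes picked by rule were the members and, from each partner list, the 3 with the smallest adjusted p and the most abundant one not called. To these came the 2 most abundant genes of each marker list and the 3 genes most like each of the 2 most abundant members. Not all of the partner and marker genes so picked are given with their own values here. Other genes were named after their values were seen, and 1 list gene is not reported here. Alternatives covered scaling, filters, DESeq2 1.42.0, limma 3.58.1 on log2 FPKM with a pseudocount of 1 or 0.1, the covariate, a replicate block, the threshold and each library left out. Positions are those of GENCODE on GRCm38, and promoter windows are RefSeq's.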

Additional observations from a re-analysis of the deposited data

Results flagged for a closer look

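In 5 of 40 groups tested, which are the 6 libraries and replicates 3 to 6 alone of sham and of MI for each of the 10 members, a single library stood apart by Dixon's criterion at 95%, and chance gives about 1 group in 20. MI replicate 2 stood above the other MI libraries for Mmp9, at 16.5 CPM, and for Mmp12, at 285 CPM. MI replicate 1 stood above the others for Mmp11, at 36.0 CPM. Sham replicate 2 was the highest sham library for Mmp14, at 39.6 CPM, and sham replicate 1 the lowest for Mmp23, at 14.9 CPM. All 5 are in groups of 6 libraries and come from replicates 1 and 2, which differ from replicates 3 to 6 in set.

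The MI effect differed between the sets by the interaction test for Mmp3, with a log2 difference of -3.88, and for Mmp23, with -1.23 (replicates 3 to 6 minus replicates 1 and 2).

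The separate FPKM table of replicates 1 and 2 lists 2 family genes that the 12-library table does not hold. Mmp7 had 0.06 FPKM in MI replicate 2 and Mmp21 had 0.06 FPKM in MI replicate 1, and both were listed at 0 in the other 3 libraries of that table.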

How the results depend on the processing

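The 7 members that rose were called by both tests in every setting that was run for both, each library left out included. Limma, the fit without the covariate, the replicate block and the stricter threshold were not run with replicates 3 to 6 counted once. By both tests 9 members were called with library size alone and 9 with DESeq2, which called 4253 of 17576 genes higher. Library size alone gave 7779 genes higher and 3208 lower over 12 libraries, 6430 and 2534 counted once, 6269 and 2478 by both tests, and 3598 lower in replicates 3 to 6. Limma on FPKM gave 3280 lower genes with a pseudocount of 1 and 3266 with 0.1. With no filter, the difference between sets was called lower for 313 genes counted once and 312 by both tests, and for 1 member by either rule, Mmp3. Within replicates 1 and 2, leaving out a library leaves 1 in its group. Fewer of all tested genes were then called higher there than with none left out. A lower count of members in those fits is therefore not particular to the members. Leaving out 1 library gave 2301 to 3979 genes higher counted once, 2240 to 3915 by both tests, and 6 to 10 members higher in replicates 1 and 2, with 6 when sham replicate 2 was left out. For the difference between sets it gave 1 to 1792 genes higher and 0 to 1200 lower counted once, 1 to 1782 higher and 0 to 1182 lower by both tests, and 0 to 4 members. The 0 and 1 came without sham replicate 1 or 2. Without MI replicate 1, the difference for Mmp11 reversed, to 0.23 over 12 libraries and 0.24 counted once, and without MI replicate 2 it was -0.60 and -0.59. The cause of these shifts was not tested. Same-numbered sham and MI libraries had correlations of their deviations from -0.108 to 0.0724. These values cannot settle whether replicate numbers pair the libraries. With 2 libraries a group, replicates 1 and 2 can only give the same value, 0.0724, and replicates 3 to 6 lay nearly as close as repeat libraries. With the replicate block in place of the set, 4750 genes were higher and 4749 lower over 12 libraries, and in replicates 3 to 6 the block gave 5776 higher and 5391 lower. The counts behind Mmp8, Mmp3 and Mmp13 in sham replicates 1 and 2, 2, 7 and 16 in all, limit the precision of their fold changes, although these libraries were deeper than sham replicates 3 to 6.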

Other observations

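Mmp24 had 0.02 and 0.08 FPKM in sham replicates 1 and 2 and 0.16 and 0.07 FPKM in MI replicates 1 and 2 in the 12-library table. The authors' separate table gives the same libraries 7.21 and 7.03 FPKM in sham and 5.24 and 4.39 FPKM in MI. Those values lie beside the 5.72 to 6.21 FPKM of sham replicates 3 to 6 and the 5.26 to 5.87 FPKM of MI replicates 3 to 6. For Mmp16, the gene length that counts and FPKM of the 12-library table imply was 3.27 kb in replicates 1 and 2 and 6.86 kb in replicates 3 to 6. For the 10 members the implied length in replicates 3 to 6 was 0.966 to 1.02 times that in replicates 1 and 2. Mmp25, which is known from leukocytes, could be tested with replicates 3 to 6 counted once but not over 12 libraries, and had 13 counts in sham and 92 counts in MI in replicates 1 and 2, and 4 and 43 counts in replicates 3 to 6.

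The beta-globin gene Hbb-bs had 2514 ± 64.1 CPM in sham replicates 3 to 6 and 1.76 ± 0.819 CPM in MI replicates 3 to 6 (SD, n = 4 each), while in replicates 1 and 2 its sham and MI levels were 1337 ± 275 and 1997 ± 2258 CPM (SD, n = 2 each). The alpha-globin gene Hba-a1 had 1589 ± 36.5 and 1323 ± 26.6 CPM in sham and MI replicates 3 to 6 (SD, n = 4 each).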
